A study of Mus musculus with 4 samples.

Results

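The respiratory chain genes described here encode the subunits of the 5 enzyme complexes that carry electrons from NADH and succinate to oxygen and make ATP. They were chosen by name from the deposited table. The rule took the Nduf subunits with a letter a, b, c, s or v and a number, Sdha to Sdhd, every name that starts with Uqcr, Cox4, Cox5, Cox6, Cox7, Cox8 or Atp5, and the mt-Nd, mt-Co, mt-Atp and mt-Cytb genes of the mitochondrial genome. It matched 92 of 40630 rows, 82 from nuclear chromosomes and 10 from the mitochondrial genome. No measured value entered the rule.

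RNA was measured in 4 libraries of neocortex dissected from C57BL/6 mouse embryos at E13.5. The group labelled conditional knockout (cKO) held replicates 4 and 5, with both Upf2 alleles floxed and with Emx1-Cre (Upf2fl/fl Emx1-Cre+). The control group held replicates 8 and 9, littermates with 1 floxed and 1 unfloxed Upf2 allele and no Cre (Upf2fl/+ Emx1-Cre-), so that Cre and the second floxed allele differ together. Upf2 encodes an adaptor of nonsense-mediated mRNA decay, and Emx1-Cre recombines in the lineage of the dorsal telencephalon, so blood vessels, meninges, blood and cells that migrate in from ventral regions keep their Upf2 alleles. Whether the libraries come from separate embryos is not in the labels, so p-values measure the spread between these libraries, which may be technical.

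Complex I oxidises NADH, complex II oxidises succinate, complex III passes electrons from ubiquinol to cytochrome c, complex IV reduces oxygen, and complex V, the ATP synthase, uses the proton gradient. Complexes I, III, IV and V combine subunits made from nuclear genes with core subunits encoded in mitochondrial DNA, whereas complex II is wholly nuclear. The mitochondrial genome is transcribed from both strands as long precursors that are cut into single RNAs. Several complex IV subunits exist as isoforms made in different tissues.

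The level of a gene is given in TPM (transcripts per 1000000), which divides reads by gene length. Read totals recovered from the TPM were 33537843 and 36453920 in cKO-labelled replicates 4 and 5, against 41680052 and 38274835 in control replicates 8 and 9. Upf2 itself measured 27.8 and 42.2 TPM in cKO-labelled cortex versus 23.7 and 41.3 TPM in control cortex (log2 fold change 0.13 ± 0.36 SE, limma adjusted p = 0.853). Its mean was not lower with the cKO label, and the sign of its difference turned to -0.16 without cKO-labelled replicate 5 and to -0.26 without control replicate 8. A whole-gene level does not check the deletion of a floxed segment. Control replicate 9 stood apart from the other libraries by a trend with GC content, described below with the genes it touches.

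Respiratory chain genes were abundant and, with 1 exception, did not pass the test. A fold change here is the mean log2(TPM + 1) of the cKO-labelled pair minus that of the control pair, a scale that understates the change of low genes. Of the 92 genes, 88 had a mean of at least 1 TPM and were tested with limma among 15107 genes, with a call at a Benjamini-Hochberg adjusted p under 0.05. None was called higher and 1, Cox6b2, was called lower, while 2.9% of all tested genes were called higher and 5.24% lower. At an unadjusted p under 0.05 there were 5 members, Cox6b2, Cox4i2, mt-Nd6, mt-Atp6 and Uqcrc2, and the share of all tested genes was 22.8%. The SE of limma came here from a trend pooled over genes and does not reflect a gene's own replicates.

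The nuclear genes and the mitochondrial genes had medians of opposite sign. The median log2 fold change was 0.11 over the 78 tested nuclear genes and -0.49 over the 10 mitochondrial genes, beside -0.16 over all tested genes. That last median moved to 0.02 after median-of-ratios scaling and to -0.01 after quantile normalization, where the nuclear median was 0.31 and 0.07 and the mitochondrial median -0.29 and -0.58. With a GC trend removed from every library, the medians were 0.03 over the nuclear and 0.0037 over the mitochondrial genes, so the negative sign of the mitochondrial median did not survive that setting. In all, 69 of the 88 genes lay within 0.5 of 0 on the log2 scale and 1 lay further than 1. Of all 15107 tested genes, 8743 lay within 0.5 and 1361 further than 1.

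In summed level, the nuclear genes held 2.95% and 2.82% of all TPM in cKO-labelled replicates 4 and 5, against 2.71% and 2.41% in control replicates 8 and 9. The mitochondrial genes held 4.43% and 5.78% in the cKO-labelled libraries, against 5.23% and 6.24% in controls. The nuclear sums did not overlap between the groups and were higher in the cKO-labelled libraries, while the mitochondrial sums overlapped. For the nuclear sums, the controls lay further apart than control replicate 8 and cKO-labelled replicate 5. The sums were not corrected for the GC trend of control replicate 9. In bulk tissue, fewer cells of a type and less RNA per cell cannot be told apart. Levels were separated between the groups, with no overlap, in 36 of 88 members (40.9%), 22 with the cKO-labelled libraries higher and 14 with them lower, beside 57.6% of all tested genes, of which 23.5% were higher and 34.1% lower.

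**Figure D1:**
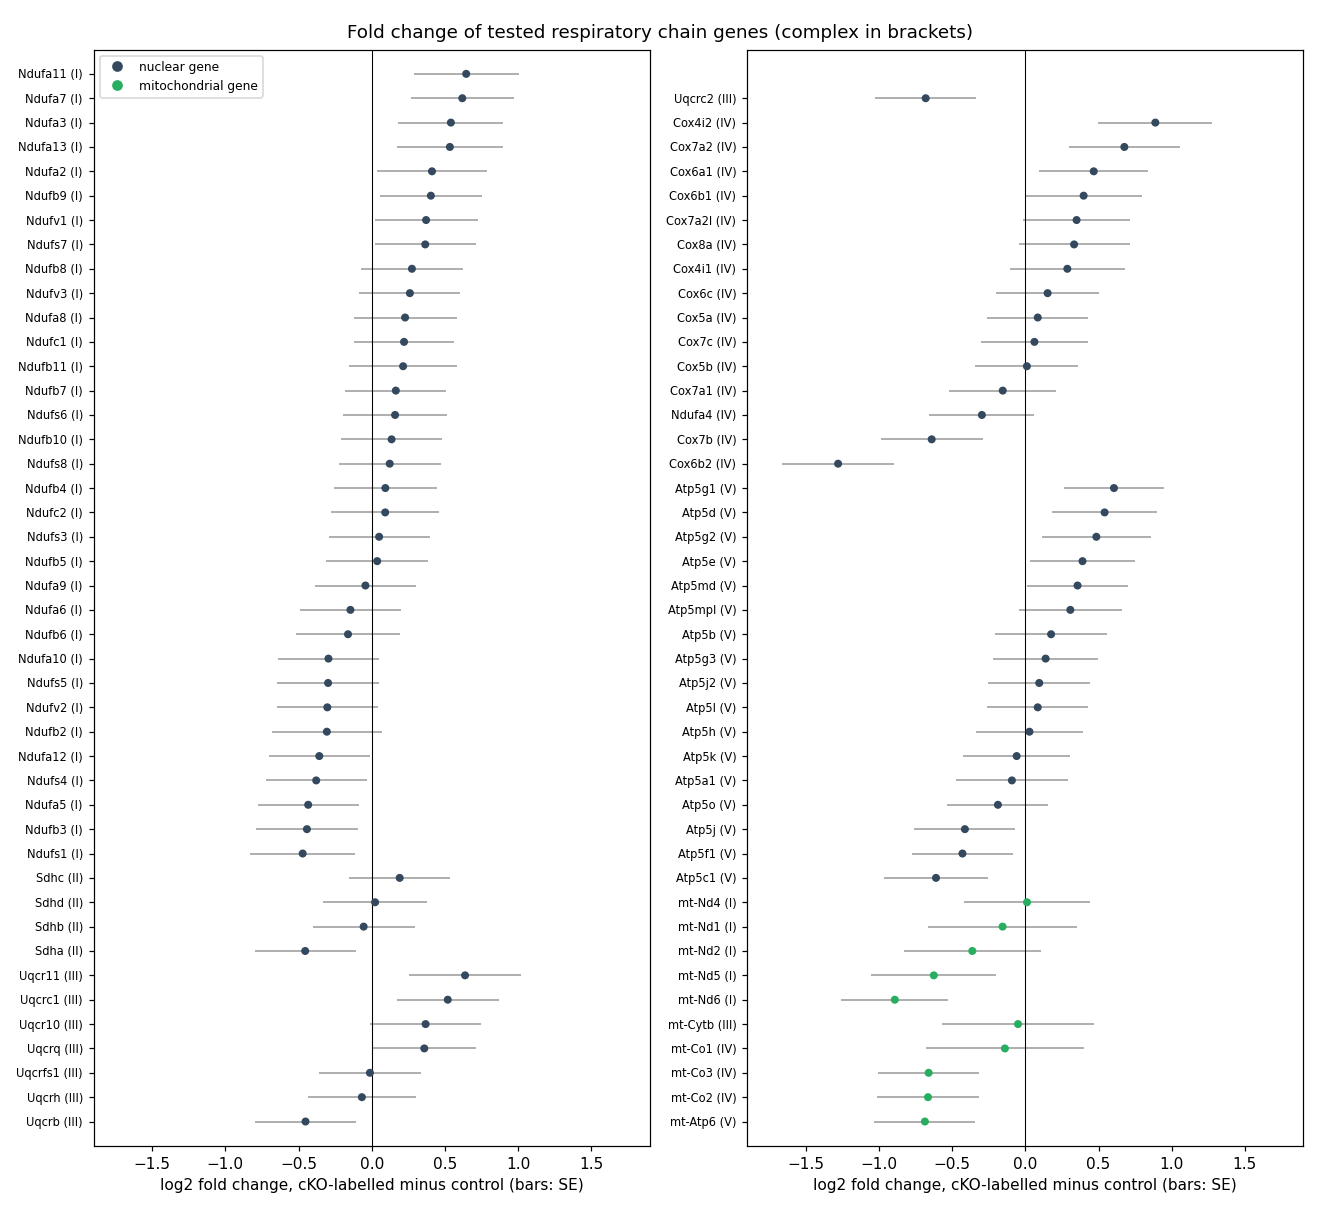
Log2 fold change, cKO-labelled minus control, of the tested respiratory chain genes (1 is not drawn), grouped by complex (points, estimates; bars, SE from limma). Most bars cross 0 or end near it, Cox6b2 lies furthest to the left at -1.28, and the mitochondrial genes lie at or below 0.01.

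Complex I is the largest of the complexes, and 34 of its nuclear genes were measured, all of them tested. None passed limma's test in either direction, beside 2.9% of all tested genes called higher and 5.24% called lower. An unadjusted p under 0.05 was found for 0 of the 34, beside 22.8% of all tested genes. The median log2 fold change was 0.12, with a range of -0.47 to 0.64. The lowest mean level was that of Ndufb2 (4.37 TPM), an accessory subunit whose annotated exons overlap Braf on the opposite strand, and the highest was that of Ndufa2 (875 TPM).

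The 7 core subunits encoded in the nucleus carry the flavin and the iron-sulphur clusters through which electrons enter and leave. Their groups overlapped in 7 of 7 genes, whereas 57.6% of all tested genes were separated between the groups. Ndufs1, the largest of them, measured 25.0 and 29.1 TPM in cKO-labelled cortex versus 27.3 and 52.3 TPM in control cortex. Ndufv1, which binds NADH and the flavin, measured 322 and 309 TPM in cKO-labelled cortex versus 331 and 179 TPM in control cortex. In both genes control replicate 9 was the library that stood apart, high for Ndufs1 and low for Ndufv1. Ndufs7 and Ndufv2 had log2 fold changes of 0.36 and -0.30.

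Among the accessory subunits, the smallest p-values belonged to Ndufa11, Ndufa7 and Ndufa3. Ndufa11, a membrane subunit, measured 575 and 490 TPM in cKO-labelled cortex versus 501 and 229 TPM in control cortex (0.64 ± 0.36, limma adjusted p = 0.263). Ndufa7 measured 396 and 408 TPM in cKO-labelled cortex versus 340 and 201 TPM in control cortex (0.62 ± 0.35, adjusted p = 0.277). Its groups did not overlap, whereas those of Ndufa11 did. Ndufa3 measured 524 and 507 TPM in cKO-labelled cortex versus 507 and 247 TPM in control cortex (0.54 ± 0.36, adjusted p = 0.355), so that 3 libraries were alike and control replicate 9 was lower.

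The most abundant accessory subunits had smaller fold changes. Ndufa2 measured 1019 and 966 TPM in cKO-labelled cortex versus 892 and 624 TPM in control cortex (0.41 ± 0.38, adjusted p = 0.511), and its groups did not overlap. Ndufc2 measured 594 and 658 TPM in cKO-labelled cortex versus 556 and 619 TPM in control cortex (0.09 ± 0.37, adjusted p = 0.9), and its groups overlapped. Ndufa13, also known as a cell death regulator, measured 605 and 578 TPM in cKO-labelled cortex versus 541 and 308 TPM in control cortex, and part of its exons overlaps an antisense gene, Tssk6. In the other direction, Ndufb3, Ndufa5, Ndufa12 and Ndufs5 were lower in both cKO-labelled libraries than in both controls, by log2 differences of -0.44, -0.43, -0.36 and -0.30 that did not pass the test.

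Complex II, succinate dehydrogenase, also works in the TCA cycle, and its 4 subunits were all tested. None passed limma's test and 0 had an unadjusted p under 0.05 (22.8% of all tested genes did). The median log2 fold change was -0.02. Sdha, the flavoprotein that oxidises succinate, measured 131 and 108 TPM in cKO-labelled cortex versus 134 and 199 TPM in control cortex (-0.46 ± 0.34, adjusted p = 0.419). The groups of Sdha did not overlap, though cKO-labelled replicate 4 and control replicate 8 were close.

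Sdhb, the iron-sulphur subunit, measured 216 and 195 TPM in cKO-labelled cortex versus 190 and 240 TPM in control cortex (-0.06 ± 0.35, adjusted p = 0.936). Sdhc, a membrane anchor, measured 212 and 206 TPM in cKO-labelled cortex versus 223 and 150 TPM in control cortex (0.19 ± 0.35, adjusted p = 0.761). Sdhd, the other anchor, measured 377 and 427 TPM in cKO-labelled cortex versus 420 and 372 TPM in control cortex (0.02 ± 0.36, adjusted p = 0.976). The groups overlapped in all 3, and each of the 3 changed sign in at least 1 alternative.

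Complex III, the cytochrome bc1 complex, had 8 nuclear members, all tested. None passed limma's test and 1 had an unadjusted p under 0.05 (22.8% of all tested genes did). The median log2 fold change was 0.17. Its large core proteins, Uqcrc2 and Uqcrc1, had fold changes of opposite sign. Uqcrc2 measured 133 and 149 TPM in cKO-labelled cortex versus 154 and 332 TPM in control cortex (-0.68 ± 0.35, adjusted p = 0.218). Uqcrc1 measured 255 and 221 TPM in cKO-labelled cortex versus 225 and 121 TPM in control cortex (0.52 ± 0.35, adjusted p = 0.357). Control replicate 9 was the highest library for Uqcrc2 and the lowest for Uqcrc1, and 19.7% of the exon length of Uqcrc2 overlaps Pdzd9 on the opposite strand.

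The small subunits Uqcr11 and Uqcr10 were the most abundant of the nuclear members of complex III. Uqcr11 measured 1341 and 1206 TPM in cKO-labelled cortex versus 1247 and 536 TPM in control cortex (0.64 ± 0.38, adjusted p = 0.303), and its groups overlapped. Uqcr10 measured 1064 and 1086 TPM in cKO-labelled cortex versus 978 and 710 TPM in control cortex (0.37 ± 0.38, adjusted p = 0.565), and its groups did not. Uqcrfs1, the Rieske iron-sulphur protein, was the least abundant, with 170 and 158 TPM in cKO-labelled cortex versus 139 and 196 TPM in control cortex. Uqcrb, Uqcrq and Uqcrh had log2 fold changes of -0.45, 0.36 and -0.07.

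**Figure D2:**
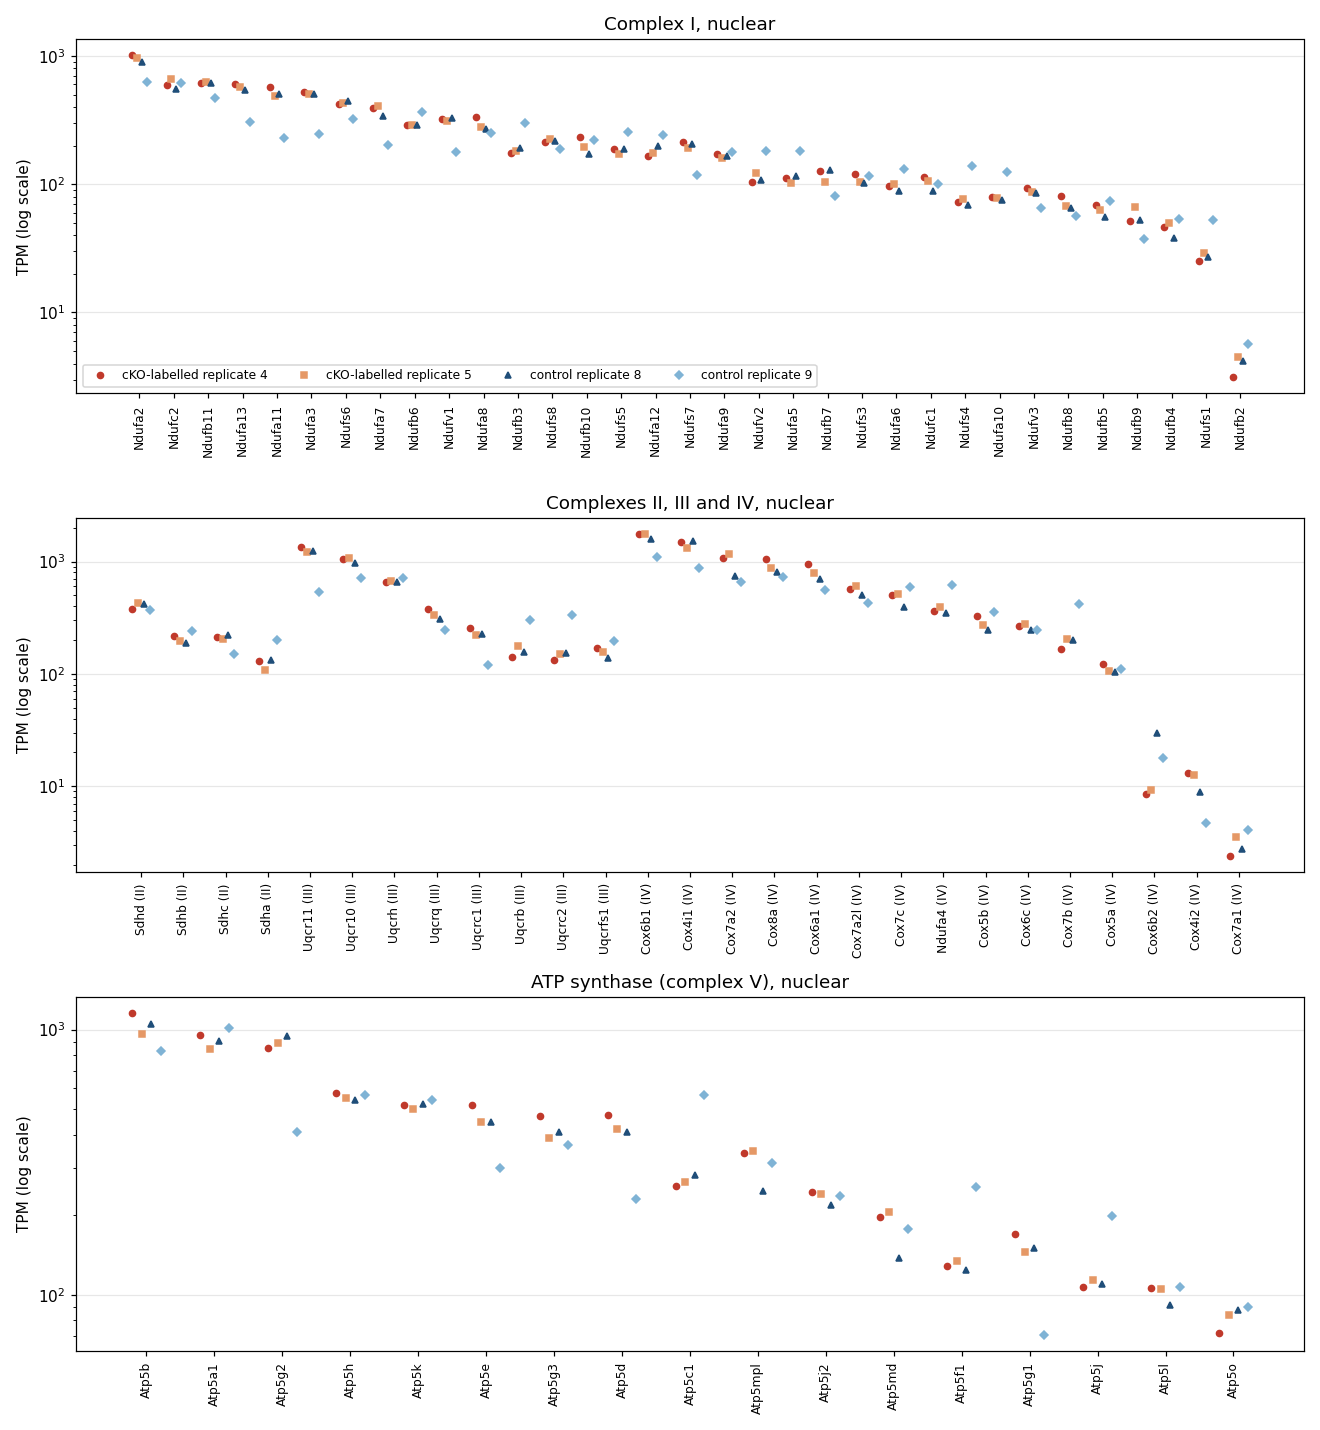
Level (TPM, log axis) of the tested nuclear respiratory chain genes (1 is not drawn) in each library, ordered by mean level within complex (red and orange, cKO-labelled replicates 4 and 5; dark and light blue, control replicates 8 and 9). Control replicate 9 lay above or below the other 3 libraries for 67 of the 78 tested genes. No such count over all tested genes is given here.

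Complex IV, cytochrome c oxidase, held the member that passed the test. Of its 17 nuclear rows, 15 were tested (Ndufa4, once assigned to complex I, was counted here), with 1 called lower, Cox6b2, and 0 called higher. An unadjusted p under 0.05 was found for 2 of the 15, beside 22.8% of all tested genes. The median log2 fold change was 0.15, and levels were separated between the groups in 8 of the 15 (53.3%, beside 57.6% of all tested genes), 7 of them with the cKO-labelled libraries higher.

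Cox6b2 (ENSMUSG00000051811.14, chromosome 7, 4751792 to 4753094 on the minus strand in GRCm38) encodes the isoform of subunit VIb known from testis, whereas Cox6b1 encodes the isoform of most tissues. Subunit VIb joins both monomers of the enzyme on the intermembrane side. Cox6b2 measured 8.59 and 9.24 TPM in cKO-labelled replicates 4 and 5, against 29.5 and 17.9 TPM in control replicates 8 and 9, from 97 and 113 recovered reads in the cKO-labelled libraries and 418 and 220 in controls. Both cKO-labelled libraries lay below both controls. The mean was 8.92 ± 0.46 TPM in the cKO-labelled libraries and 23.7 ± 8.2 TPM in control cortex (SD, n = 2 each), and the log2 fold change was -1.28 ± 0.38 (limma adjusted p = 0.0164).

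The call held in 12 of 15 alternatives, with adjusted p between 0.0024 and 1.00 over all 15. It was lost with no filter on low TPM (adjusted p = 0.182) and without cKO-labelled replicate 4 (1.00) or 5 (0.706), where only the control pair informs the spread. The log2 fold change stayed between -1.72 and -0.93. Cox6b1, the abundant isoform, measured 1761 and 1742 TPM in cKO-labelled cortex versus 1597 and 1105 TPM in control cortex (0.40 ± 0.40, adjusted p = 0.549). Cox6b2 made up 0.485% and 0.528% of the summed TPM of the pair in the cKO-labelled libraries, against 1.82% and 1.59% in controls, so its share did not overlap between the groups either.

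Markers of some other tissues moved with the same groups. Of 10 markers of cortical hem and choroid plexus, 10 were called lower, with a summed level of 6.34 and 9.20 TPM in cKO-labelled cortex versus 2096 and 2304 TPM in control cortex. Of 8 meningeal markers, 8 were called lower, with 7.28 and 3.36 TPM in cKO-labelled cortex versus 443 and 240 TPM in control cortex, and 12 of 12 markers of the ganglionic eminence and interneurons were called higher, with 1096 and 569 TPM in cKO-labelled cortex versus 119 and 238 TPM in control cortex. Markers of neocortical progenitors and neurons summed to 1878 and 2085 TPM in cKO-labelled cortex versus 2041 and 2226 TPM in control cortex, with 1 of 12 called lower. Of 10 microglial and macrophage markers 3 were called lower (85.1 and 115 TPM in cKO-labelled cortex versus 253 and 111 TPM in control cortex). Of 9 markers each of red blood cells and of endothelium and pericytes, 0 were called by limma. An unadjusted p under 0.05 was found for 2 and 3 of them, beside 22.8% of all tested genes. The part of these tissues in the level of Cox6b2 was not tested.

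The promoters of the subunit VIb pair are shown because the 2 isoforms differ in level and in fold change. Each is 300 bases from RefSeq on GRCm38.p6, from 250 before to 50 after the start, and capitals mark a match to one of 3 motifs known from nuclear respiratory genes, searched on both strands: NRF1 (the core GCGCANGCG), the ETS motif bound by GABP (CCGGAAG) and YY1 (AANATGGC). Cox6b2 lies at chr7:4753045-4753344 and Cox6b1 at chr7:30626065-30626364, both on the minus strand.
Cox6b2: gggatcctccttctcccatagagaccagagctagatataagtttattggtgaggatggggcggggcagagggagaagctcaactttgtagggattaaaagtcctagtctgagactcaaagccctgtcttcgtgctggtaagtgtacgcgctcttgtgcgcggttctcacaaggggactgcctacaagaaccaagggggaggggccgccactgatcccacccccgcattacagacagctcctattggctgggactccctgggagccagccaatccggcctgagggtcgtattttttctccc
Cox6b1: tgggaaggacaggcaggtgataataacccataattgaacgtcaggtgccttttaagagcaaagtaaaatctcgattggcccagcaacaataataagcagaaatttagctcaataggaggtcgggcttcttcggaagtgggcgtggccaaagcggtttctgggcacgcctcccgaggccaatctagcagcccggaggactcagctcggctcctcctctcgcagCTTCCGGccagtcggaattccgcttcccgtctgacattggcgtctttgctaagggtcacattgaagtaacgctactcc
The window of Cox6b2 held none of the 3 motifs and 10 CG pairs, while that of Cox6b1 held 1 ETS match, on the opposite strand, and 17 CG pairs.

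Promoters were found for 66 of the 82 nuclear members, 71 promoters in all. An NRF1 match stood in 29.6% of them, beside 6.25% of all 32851 promoters in the table. An ETS match stood in 23.9%, beside 8.86%, and a YY1 match in 23.9%, beside 6.05%. At least 1 of the 3 was in 45 of the 71 (63.4%), beside 18.6% of all promoters, and no matches of different motifs overlapped. The promoter of Sdhd (chr9:50603800-50604099, minus strand) is shown as one that holds 2 of them, NRF1 and, further 3′ and on the opposite strand, ETS.
Sdhd: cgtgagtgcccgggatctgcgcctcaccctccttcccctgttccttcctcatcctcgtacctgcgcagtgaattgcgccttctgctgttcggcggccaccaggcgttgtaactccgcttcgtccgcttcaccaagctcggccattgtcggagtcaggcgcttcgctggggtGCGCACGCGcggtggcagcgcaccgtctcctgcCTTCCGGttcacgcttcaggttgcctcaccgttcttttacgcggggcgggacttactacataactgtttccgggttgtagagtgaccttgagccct
A match is a run of letters and was not tested as a binding site. Member promoters held a median of 19 CG pairs, against 7 in all promoters. The NRF1 and ETS motifs contain CG, and the shares were not adjusted for this.

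The other isoform families of complex IV did not pass the test. Cox4i2, the isoform of subunit IV known from lung and for its link to low oxygen, measured 13.1 and 12.7 TPM in cKO-labelled cortex versus 8.85 and 4.69 TPM in control cortex, from 105 and 110 recovered reads in the cKO-labelled libraries and 89 and 41 in controls. Its groups did not overlap, with the cKO-labelled libraries higher (0.89 ± 0.39, limma adjusted p = 0.143). It was past the threshold in 3 of 15 alternatives, median-of-ratios scaling (adjusted p = 0.0268), quantile normalization (0.0372) and without control replicate 8 (0.0072), and its adjusted p ranged from 0.0072 to 1.00 over them. Without control replicate 9 its log2 fold change was 0.49.

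Cox4i1, the common isoform, measured 1498 and 1326 TPM in cKO-labelled cortex versus 1513 and 881 TPM in control cortex (0.29 ± 0.39, adjusted p = 0.672), and its groups overlapped. Cox4i2 made up 0.865% and 0.945% of the summed TPM of the pair in the cKO-labelled libraries, against 0.581% and 0.530% in controls. This share did not overlap between the groups and was steadier between control replicates 8 and 9 than the level of either gene. Markers of endothelium and pericytes, vessel cells in which Cox4i2 is also known, summed to 119 and 102 TPM in cKO-labelled cortex versus 165 and 124 TPM in control cortex, and their part in its level was not tested.

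The isoforms known from heart and muscle were low. Cox7a1 measured 2.38 and 3.56 TPM in cKO-labelled cortex versus 2.78 and 4.05 TPM in control cortex (-0.15 ± 0.36, adjusted p = 0.821), and made up 0.220% and 0.305% of Cox7a1 and Cox7a2 together in the cKO-labelled libraries, against 0.371% and 0.611% in controls. Cox6a2 had 0 reads in all 4 libraries, and 7 of 8 heart and muscle markers (Actc1, Ckm, Mb, Myh6, Myh7, Myog and Tnnt2) had means under 1 TPM. Cox7a2, the common partner of Cox7a1, measured 1083 and 1162 TPM in cKO-labelled cortex versus 747 and 659 TPM in control cortex (0.68 ± 0.38, adjusted p = 0.266), without overlap and with both pairs of replicates close together. Cox7a2 was past the threshold in 1 of 15 alternatives, with a log2 fold change of 0.52 to 0.88.

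Further common subunits of complex IV were likewise higher in both cKO-labelled libraries than in both controls without passing the test. Cox6a1 measured 948 and 791 TPM in cKO-labelled cortex versus 706 and 555 TPM in control cortex (0.47 ± 0.37, adjusted p = 0.444). Cox7a2l measured 567 and 609 TPM in cKO-labelled cortex versus 500 and 424 TPM in control cortex (0.35 ± 0.36, adjusted p = 0.564). Cox8a measured 1061 and 880 TPM in cKO-labelled cortex versus 803 and 732 TPM in control cortex (0.33 ± 0.38, adjusted p = 0.603). With the GC trend removed, Cox6a1 stood at -0.24 and Cox8a at -0.19, so their direction depended on that step.

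**Figure D3:**
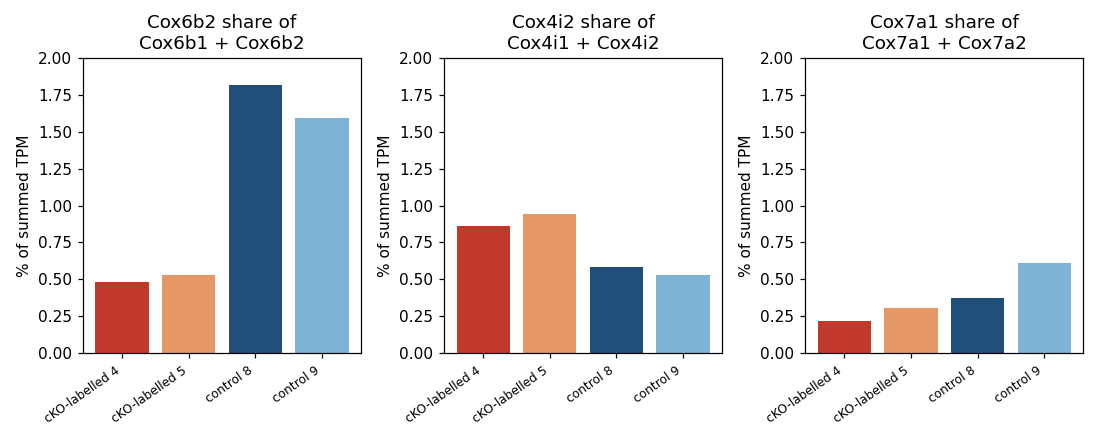
Share (%) of the less abundant isoform in the summed TPM of its pair, in each library (red and orange bars, cKO-labelled replicates 4 and 5; blue bars, control replicates 8 and 9). The share of Cox6b2 was 0.485% and 0.528% in the cKO-labelled libraries, against 1.82% and 1.59% in controls, and that of Cox4i2 was 0.865% and 0.945% in the cKO-labelled libraries, against 0.581% and 0.530% in controls.

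The remaining complex IV subunits were led in p by Cox7b. It measured 167 and 206 TPM in cKO-labelled cortex versus 200 and 419 TPM in control cortex (-0.64 ± 0.35, adjusted p = 0.252). Ndufa4 measured 361 and 396 TPM in cKO-labelled cortex versus 352 and 613 TPM in control cortex (-0.30 ± 0.36, adjusted p = 0.629), and Cox7c measured 501 and 518 TPM in cKO-labelled cortex versus 398 and 599 TPM in control cortex (0.06 ± 0.36, adjusted p = 0.93). In these 3 genes control replicate 9 was highest and the groups overlapped. Cox6c measured 269 and 276 TPM in cKO-labelled cortex versus 244 and 246 TPM in control cortex (0.15 ± 0.35, adjusted p = 0.814), with close replicates and no overlap. Cox5a and Cox5b had log2 fold changes of 0.09 and 0.01.

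The ATP synthase had 19 nuclear rows, of which 17 were tested. None passed limma's test in either direction, and 0 had an unadjusted p under 0.05 (22.8% of all tested genes did). The median log2 fold change was 0.10. The catalytic head had fold changes of both signs. Atp5a1, the alpha subunit, measured 957 and 842 TPM in cKO-labelled cortex versus 903 and 1014 TPM in control cortex (-0.09 ± 0.38, adjusted p = 0.903). Atp5b, the catalytic beta subunit, measured 1156 and 963 TPM in cKO-labelled cortex versus 1046 and 833 TPM in control cortex (0.18 ± 0.38, adjusted p = 0.802). Both overlapped between the groups, and Atp5b was the most abundant member of the complex.

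The central stalk was measured through 3 genes. Atp5c1, the gamma subunit, measured 257 and 267 TPM in cKO-labelled cortex versus 282 and 568 TPM in control cortex (-0.61 ± 0.35, adjusted p = 0.284). Atp5d, the delta subunit, measured 477 and 420 TPM in cKO-labelled cortex versus 410 and 230 TPM in control cortex (0.54 ± 0.36, adjusted p = 0.349). The groups did not overlap in either gene, and in both the gap between the controls was wider than the gap between control replicate 8 and the nearer cKO-labelled library. Atp5e, the epsilon subunit, measured 518 and 449 TPM in cKO-labelled cortex versus 448 and 302 TPM in control cortex.

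The membrane ring is built from 1 protein encoded by 3 genes. Atp5g1 measured 170 and 145 TPM in cKO-labelled cortex versus 150 and 70.3 TPM in control cortex (0.61 ± 0.34, adjusted p = 0.273). Atp5g2 measured 853 and 891 TPM in cKO-labelled cortex versus 946 and 410 TPM in control cortex (0.49 ± 0.37, adjusted p = 0.425), and Atp5g3 measured 473 and 389 TPM in cKO-labelled cortex versus 412 and 368 TPM in control cortex (0.14 ± 0.36, adjusted p = 0.836). Each overlapped between the groups. As shares of the summed TPM of the trio, Atp5g2 held 57.0% and 62.5% in the cKO-labelled libraries, against 62.7% and 48.3% in controls, Atp5g1 held 11.3% and 10.2% in the cKO-labelled libraries, against 9.94% and 8.29% in controls, and Atp5g3 held 31.6% and 27.3% in the cKO-labelled libraries, against 27.3% and 43.4% in controls.

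Of the peripheral stalk, Atp5f1, the b subunit, measured 129 and 134 TPM in cKO-labelled cortex versus 124 and 254 TPM in control cortex (-0.43 ± 0.35, adjusted p = 0.447). Its groups overlapped, and control replicate 9 was high. Atp5md, a small subunit near the membrane part, measured 197 and 205 TPM in cKO-labelled cortex versus 138 and 178 TPM in control cortex. Its groups did not overlap, and its log2 fold change of 0.36 did not pass the test. Atp5h, Atp5k, Atp5l and Atp5j2 had log2 fold changes between -0.06 and 0.10.

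The 4 rows under a mean of 1 TPM complete the list. Atp5c1-ps, a pseudogene row, measured 0.216 and 0.200 TPM in cKO-labelled cortex versus 0.604 and 0.994 TPM in control cortex, from 2 and 2 reads in the cKO-labelled libraries and 7 and 10 in controls. Cox7b2, an isoform known from testis, had 1 read in cKO-labelled replicate 5 and 0 in the other 3 libraries. Cox6a2 and a second row named Atp5o, whose exons lie wholly within those of other annotated genes, had 0 reads throughout.

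The mitochondrial genome contributed 10 members, and 9 had a negative log2 fold change, as did 8960 of all 15107 tested genes. Its other subunit genes, mt-Nd3, mt-Nd4l and mt-Atp8, had no row under these names in the deposited table. None of the 10 passed limma's test, and 2 had an unadjusted p under 0.05 (22.8% of all tested genes did). Levels were separated between the groups in 4, all with the cKO-labelled libraries lower (34.1% of all tested genes were separated in that direction). cKO-labelled replicate 4 was the lowest library for 10 of 10, replicate 5 lay above it for 10 of 10, and control replicate 9 was the highest for 9. Leaving out cKO-labelled replicate 4 gave a median log2 fold change of -0.11 and leaving out replicate 5 gave -0.73, so its size rested on replicate 4.

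mt-Nd6, a complex I subunit and the only member transcribed from the strand opposite to the other 9, had the most negative value. It measured 352 and 496 TPM in cKO-labelled cortex versus 776 and 776 TPM in control cortex (-0.89 ± 0.37, adjusted p = 0.114). Both cKO-labelled libraries were lower than both controls, which were nearly equal. mt-Nd6 was past the threshold in 3 of 15 alternatives, without control replicate 8 (adjusted p = 0.0118), without control replicate 9 (0.0468) and with control replicate 9 left out after GC removal (0.0322), and its adjusted p ranged from 0.0118 to 1.00. GC removal with all libraries left it at -0.34 (adjusted p = 0.399). Its GC content, 34.1%, was the lowest of the 10, and it shared no word of 50 bases with another annotated gene.

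The other complex I members from this genome belong to its membrane arm, where protons are pumped. mt-Nd5 measured 1759 and 2766 TPM in cKO-labelled cortex versus 2961 and 3908 TPM in control cortex (-0.62 ± 0.43, adjusted p = 0.368). mt-Nd2 measured 4538 and 5560 TPM in cKO-labelled cortex versus 6199 and 6724 TPM in control cortex (-0.36 ± 0.47, adjusted p = 0.653). Neither overlapped between the groups. mt-Nd1 measured 8995 and 12387 TPM in cKO-labelled cortex versus 10593 and 13041 TPM in control cortex (-0.16 ± 0.51, adjusted p = 0.876). mt-Nd4 measured 2653 and 3047 TPM in cKO-labelled cortex versus 2845 and 2795 TPM in control cortex (0.01 ± 0.43, adjusted p = 0.99), and both it and mt-Nd1 overlapped between the groups.

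The most abundant members of all were mt-Co1 and mt-Cytb. mt-Co1, the catalytic subunit of complex IV, measured 14163 and 19325 TPM in cKO-labelled cortex versus 16014 and 20727 TPM in control cortex (-0.14 ± 0.54, adjusted p = 0.896). mt-Cytb, the cytochrome b of complex III, measured 11607 and 13637 TPM in cKO-labelled cortex versus 12334 and 13748 TPM in control cortex (-0.05 ± 0.52, adjusted p = 0.963). Their groups interleaved, replicate by replicate. mt-Co1, mt-Cytb and mt-Nd1 turned positive with median-of-ratios scaling, at 0.06, 0.15 and 0.05, and with the GC trend removed, at 0.26, 0.38 and 0.31.

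mt-Co2, mt-Co3 and mt-Atp6, neighbours in the mitochondrial genome, had levels far below mt-Co1. mt-Co2 measured 117 and 232 TPM in cKO-labelled cortex versus 238 and 288 TPM in control cortex (-0.66 ± 0.35, adjusted p = 0.232). mt-Co3 measured 88.7 and 196 TPM in cKO-labelled cortex versus 163 and 269 TPM in control cortex (-0.66 ± 0.35, adjusted p = 0.232). mt-Atp6, part of the proton channel of the ATP synthase, measured 61.4 and 135 TPM in cKO-labelled cortex versus 130 and 166 TPM in control cortex (-0.69 ± 0.34, adjusted p = 0.212). The groups did not overlap for mt-Co2 and overlapped for the other two, with cKO-labelled replicate 4 low in each.

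The same 3 genes have near-identical copies on chromosome 1, where pieces of mitochondrial DNA were inserted into the nuclear genome. Of all words of 50 bases in their annotated transcripts, 100% in mt-Co2, 99.9% in mt-Co3 and 99.5% in mt-Atp6 also occur in another annotated gene, against 62.2% in mt-Nd4, 51.1% in mt-Co1, under 10% in mt-Nd2 and mt-Nd5 and 0% in mt-Nd1, mt-Cytb and mt-Nd6. The copy Gm28661 (chromosome 1, 24614885 to 24615565) aligned to mt-Co2 over 681 bases with 0 mismatches, Gm28437 to mt-Co3 over 783 with 0, and Gm10925 to mt-Atp6 over 678 with 0. The first 60 bases of mt-Co2 and of its copy show the identity, so no letters are in capitals.
mt-Co2: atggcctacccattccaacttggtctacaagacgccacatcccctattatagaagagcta
Gm28661: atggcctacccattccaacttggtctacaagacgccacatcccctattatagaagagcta
A read from such a stretch has no unique origin, and how the authors counted it is not given in the sources used here. Gm28661 was listed at 75.3 and 134 TPM in cKO-labelled cortex versus 153 and 192 TPM in control cortex, Gm10925 at 64.1 and 160 TPM in cKO-labelled cortex versus 154 and 218 TPM in control cortex, and Gm28437 at 50.6 and 108 TPM in cKO-labelled cortex versus 94.3 and 150 TPM in control cortex. cKO-labelled replicate 4 was the lowest and control replicate 9 the highest library for each copy, as for the 3 genes themselves. The levels of mt-Co2, mt-Co3, mt-Atp6, mt-Nd4 and mt-Co1 are therefore uncertain.

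**Figure D4:**
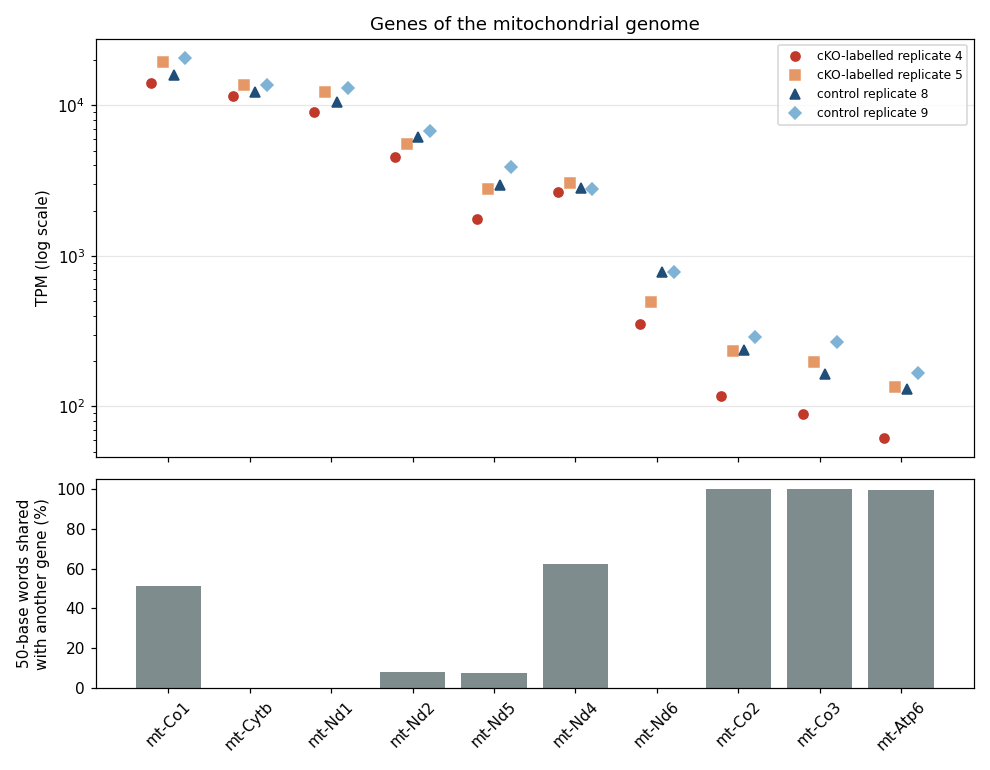
Top, level (TPM, log axis) of the 10 mitochondrial members in each library (red and orange, cKO-labelled replicates 4 and 5; blue, control replicates 8 and 9). Bottom, share (%) of each gene's words of 50 bases that also occur in another annotated gene: the 3 genes with shares of 99.5% or more are the 3 lowest in level.

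Much of the spread among the nuclear genes lay between the controls. The median absolute log2 difference was 0.47 between control replicates 9 and 8 and 0.11 between cKO-labelled replicates 5 and 4, and it exceeded 0.5 for 36 of 78 nuclear genes in the control pair and for 0 of 78 in the cKO-labelled pair. Control replicate 9 was the highest of the 4 libraries for 32 genes and the lowest for 35. Such counts over all tested genes are not given here, so these do not set the nuclear members apart. The fold change had the sign opposite to the gap of replicate 9 over replicate 8 for 62 of the 78. Both numbers contain control replicate 9, with opposite sign, so that count is partly fixed by arithmetic. The median absolute fold change, 0.30 on the log2 scale, was smaller than the median control gap.

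The gap followed base composition. The 14 nuclear genes under 45% GC, Uqcrc2, Cox7b and Atp5f1 among them, were all higher in control replicate 9 than in replicate 8, with a median log2 difference of 0.69, and their median fold change was -0.31. The 15 genes over 55% GC, such as Uqcr11, Atp5g2 and Ndufa11, had a median difference of -0.79 and a median fold change of 0.40. The 49 genes between had medians of 0.05 and 0.12. Across the 78 genes, which share the same 4 libraries, the Spearman correlation of GC content was -0.60 with the control gap and 0.50 with the fold change, and across 14959 tested genes with a GC value it was -0.76 and 0.54. The control gap and the fold change both contain control replicate 9, so their correlations with GC content are not independent. The gap of cKO-labelled replicate 5 over replicate 4 also ran with GC content, at -0.32 across the 78 genes and -0.32 across the 14959.

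**Figure D5:**
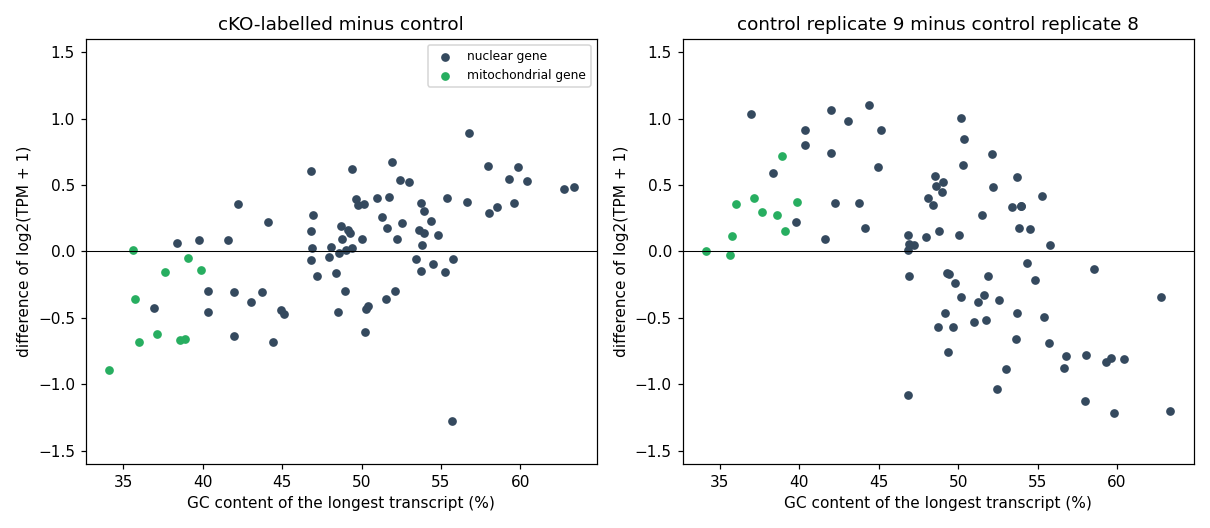
GC content (%) of the longest transcript against the log2 fold change, cKO-labelled minus control (left), and against the log2 difference between control replicates 9 and 8 (right), for the tested members (1 is not drawn). The left panel slopes up and the right panel slopes down, and the values of both contain control replicate 9. Among the nuclear genes the median difference between the controls was 0.69 under 45% GC and -0.79 over 55% GC.

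How many members pass the test depended on the libraries and on scaling. Without control replicate 9, limma called 0 members higher and 2 lower, Cox6b2 and mt-Nd6, while 2.56% of all tested genes were called higher and 3.3% lower. Without control replicate 8, which leaves replicate 9 as the lone control and the spread to the cKO-labelled pair, it called 25 higher and 19 lower, while 18.7% of all tested genes were called higher and 30.1% lower. Without cKO-labelled replicate 4 or 5 it called 0 members, beside 0.119% higher and 1.05% lower of all genes in the first case and 0.285% and 1.5% in the other.

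Atp5md was called higher and Cox6b2 lower with the GC trend removed, where 1.78% of all tested genes were called higher and 5.22% lower. Leaving out control replicate 9 as well kept both calls and added mt-Nd6 as lower, with 2.57% of all genes higher and 4.08% lower. Cox4i2 was called higher and Cox6b2 lower after median-of-ratios scaling (5.6% of all genes higher and 4.36% lower) and after quantile normalization (4.73% and 3.54%). With no filter on low TPM limma called 0 members, beside 0.0153% of all genes higher and 0.666% lower.

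Genes that build, transcribe and regulate the chain were counted in 11 further lists, which held 183 tested genes. None was called in either direction by limma, 18 had an unadjusted p under 0.05 (22.8% of all tested genes did), and the median log2 fold change was -0.13. Levels were separated between the groups in 100 of the 183, and in 57.6% of all tested genes. Assembly factors of complex I had a median of -0.34 (15 tested), those of complex II -0.25 (4), of complex III 0.14 (6), of complex IV 0.09 (18) and of complex V -0.44 (3). Other parts of the chain outside the name rule, such as cytochrome c, had a median of 0.15 (6), and the 77 mitochondrial ribosomal proteins had -0.10. Factors for transcription, replication and RNA processing of mitochondrial DNA had -0.50 (20), nuclear regulators of the chain -0.18 (10), mitochondrial protein quality control -0.29 (12) and the TCA cycle -0.50 (13).

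The gene closest to the threshold was Ndufaf3, a complex I assembly factor. It measured 105 and 103 TPM in cKO-labelled cortex versus 67.0 and 41.1 TPM in control cortex (0.98 ± 0.35, adjusted p = 0.0556), and was past it in 3 of 15 alternatives, with adjusted p between 0.0012 and 1.00. Suclg2, a succinyl-CoA ligase subunit of the TCA cycle, measured 14.6 and 17.8 TPM in cKO-labelled cortex versus 23.2 and 50.2 TPM in control cortex (-1.04 ± 0.37, adjusted p = 0.0557), and was past it in 2. The groups of neither gene overlapped. Gabpa, the DNA-binding subunit of the factor that binds the ETS motif and a gene whose exons partly overlap Atp5j on the opposite strand, measured 15.6 and 20.3 TPM in cKO-labelled cortex versus 25.5 and 50.2 TPM in control cortex (-0.97 ± 0.37, adjusted p = 0.0807). Pnpt1, a mitochondrial RNA-degrading enzyme, averaged 16.4 ± 4.1 TPM in cKO-labelled cortex and 34.2 ± 16.3 TPM in control cortex (SD, n = 2 each; -0.95 ± 0.37, limma adjusted p = 0.0896).

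The gene of smallest p in each other list lay further from the threshold. Hspd1, the mitochondrial chaperonin, and Cycs, cytochrome c, had log2 fold changes of -0.76 and -0.62, and Sdhaf3, a complex II assembly factor, -0.63. Mrpl34, Coa3, Atpaf2 and Uqcc2, a ribosomal protein and factors for complexes IV, V and III, had 0.70, 0.70, 0.70 and 0.59. Atpaf2 was close between the controls and less so between the cKO-labelled libraries, with 67.0 and 82.8 TPM in cKO-labelled cortex versus 45.7 and 45.2 TPM in control cortex.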

How the data were processed

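The authors deposited TPM values for 40630 genes, 1 column per library, each summing to 1000000. Per the labels' protocols, TRIzol RNA went through DNase treatment into a stranded total RNA library kit, and per the submitters' processing notes alignment used STAR and mm10. How reads were counted (tool, strand setting, annotation release, treatment of reads that map to several places) is not given in the sources used here, so overlapping and antisense genes are uncertain. TPM times GENCODE M21 exon length gave whole reads for 100.0% of values (within 0.05), from which totals were recovered, so the release is inferred; 40281 IDs had such a length. A further 27 symbols turned into dates were restored from their IDs.

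Genes with a mean of at least 1 TPM were tested with limma 3.58.1 (R 4.3.3) on log2(TPM + 1), with empirical Bayes and an intensity trend, two-sided, adjusted over all 15107 tested genes. Every p for a gene is from limma. No single-gene permutation test was run, since with 2 libraries a group its smallest exact p is 0.333. GC content is that of the longest M21 transcript, promoters are from RefSeq, and words of 50 bases were compared between M21 transcripts; tables were handled in Python 3.11.15.

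The members and lists were chosen with earlier results of these data known. Values with statistics are given for all mitochondrial members, Sdha to Sdhd, the isoform families, the 3 of smallest p and 2 most abundant other members of complexes I, III, IV and V, called members, Upf2, and the gene of smallest p in each pathway list; other members appear by level, difference or range, and 1 member is counted but not reported here by itself. Alternatives were pseudocounts of 0.1 and 0.5, no filter or a mean of at least 5 TPM, median-of-ratios scaling, quantile normalization, rescaling without mitochondrial genes, no intensity trend, robust empirical Bayes, a loess GC trend removed per library (also without control replicate 9) and each library left out.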

Additional observations from a re-analysis of the deposited data

How the results depend on the processing

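Pseudocounts, a mean of at least 5 TPM, rescaling without mitochondrial genes and the variance models moved no count and no median beyond its spread. Members called higher numbered 1 with median-of-ratios scaling, 1 with quantile normalization, 1 with the GC trend removed and 1 with control replicate 9 also left out, and 0 to 25 with single libraries left out. Members called lower numbered 0 with no filter on low TPM, 2 with GC removal without control replicate 9, and 0 to 19 with single libraries left out. The nuclear median was 0.31 with median-of-ratios scaling, 0.028 with GC removal and 0.039 with control replicate 9 also left out (0.070 to 0.15 over single libraries left out), and the mitochondrial median was 0.0037 and -0.13 under the same GC fits (-0.73 to -0.11).

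Log2 fold changes that turned sign, none of them called, were these. GC removal gave Atp5d -0.018, Atp5f1 0.055, Atp5g2 -0.25, Cox4i1 -0.22, Cox6a1 -0.24, Cox8a -0.19, Ndufa4 0.094, mt-Co1 0.26, mt-Cytb 0.38, mt-Nd1 0.31 and mt-Nd2 0.15. GC removal without control replicate 9 gave Atp5b -0.021, Atp5d -0.050, Atp5f1 0.27, Atp5g2 -0.39, Cox4i1 -0.25, Cycs 0.076, Ndufa11 -0.064, Ndufa3 -0.020, Ndufa4 0.23, Sdhaf3 0.027, Sdhb 0.056, Sdhc -0.094, Sdhd -0.072, Uqcr11 -0.16, mt-Co1 0.18, mt-Cytb 0.17 and mt-Nd1 0.17. Median-of-ratios scaling gave Atp5a1 0.11, Cox7a1 0.00074, Sdhb 0.15, mt-Co1 0.064, mt-Cytb 0.15 and mt-Nd1 0.048, and quantile normalization gave Cox7a1 0.14 and Sdhd -0.037. The cause was not tested.

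With each library left out in turn, ranges that crossed 0 were -0.18 to 1.6e-05 for Atp5a1, -0.94 to 0.086 for Atp5f1, -0.12 to 1.09 for Atp5g2, -0.0017 to 0.28 for Atp5g3, -0.10 to 0.68 for Cox4i1, -0.37 to 0.061 for Cox7a1, -0.23 to 0.36 for Cox7c, -0.70 to 0.10 for Ndufa4, -0.22 to 0.11 for Sdhb, -0.093 to 0.47 for Sdhc, -0.068 to 0.11 for Sdhd, -0.26 to 0.52 for Upf2, -0.36 to 0.085 for mt-Co1, -0.17 to 0.067 for mt-Cytb, -0.39 to 0.076 for mt-Nd1 and -0.088 to 0.11 for mt-Nd4. In these fits the lone library is assumed to vary like the other group.

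No paired analysis was possible because the groups share no replicate number. Prior degrees of freedom were finite with no filter, after GC removal and without a control, so a gene's own spread counts only there.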

Other observations

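The ribosomal RNAs of the mitochondrion, which the name rule does not cover, were listed far below its abundant mRNAs. These are levels in libraries from a total RNA kit and were not checked as levels in the cells. mt-Rnr1 measured 329 and 468 TPM in cKO-labelled cortex versus 386 and 591 TPM in control cortex (log2 fold change -0.28 ± 0.36, limma adjusted p = 0.646). mt-Rnr2 measured 301 and 456 TPM in cKO-labelled cortex versus 388 and 711 TPM in control cortex (-0.50 ± 0.36, adjusted p = 0.392). cKO-labelled replicate 4 was the lowest and control replicate 9 the highest library for both.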
